A study of Mus musculus with 48 samples.

Results

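Neutrophils, the granulocytes that enter injured or inflamed tissue first, and the acute-phase response, the release of secreted plasma proteins under cytokine signals, leave overlapping transcripts in a tissue sample. The genes described here are 9 such transcripts, chosen by symbol among the 56748 genes in the deposited table of mouse tibialis anterior muscle. They are *S100a8* and *S100a9*, whose calcium-binding products pair as calprotectin in the neutrophil cytosol; *Lcn2*, a siderophore-binding lipocalin; *Lrg1*, a leucine-rich secreted glycoprotein; *Ngp*, a granule protein made while neutrophils mature in the marrow; *Retnlg*, a resistin-like secreted protein of myeloid cells; and the receptors *Il1r2*, *Cxcr2*, and *Csf3r*. *Il1r2* is a decoy receptor for interleukin-1, *Cxcr2* a chemokine receptor that draws neutrophils into tissue, and *Csf3r* the receptor for G-CSF, the cytokine that drives neutrophil production. In muscle that holds few blood cells these transcripts are rare, and *Lcn2* and *Lrg1* are also made outside neutrophils, in liver and in vessel walls among other places.

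The 48 libraries came from male mice of 39 to 55 weeks. Each genotype and condition had 12 mice, 2 at each circadian time (CT) of CT18, CT22, CT26, CT30, CT34, and CT38. In KPC mice, KPC cells (a mouse pancreatic tumor line) had been injected orthotopically into the pancreas, where control mice received PBS. All mice were kept in constant darkness after 12-h light/dark entrainment. FoxP1SkmKO mice carry floxed *Foxp1* alleles and an Acta1-cre transgene, in which the ACTA1 promoter drives Cre in skeletal muscle fibers, so blood and vessel cells in the sample are not its target. WT mice are labelled C57BL/6J, whereas the series text describes floxed mice without Cre. The count of *Foxp1* did not pass the test between the labelled genotypes. It averaged 0.630 ± 0.140 FPKM (SD, n = 12) in WT control mice and 0.578 ± 0.0682 FPKM (SD, n = 12) in FoxP1SkmKO control mice (log2 fold change -0.11 ± 0.07, standard error; adjusted p = 0.459, edgeR's quasi-likelihood test, Benjamini-Hochberg adjustment). In KPC mice the log2 fold change was -0.20 ± 0.07 (standard error; unadjusted p = 0.00766, adjusted p = 0.246, edgeR). The count sums reads over the whole gene and all cells of the muscle, exons outside the floxed part included, so it is a limited check of the deletion. Genotypes are named as labelled. Libraries held 14480867 to 20787784 reads on genes, and 8 muscle fiber genes had summed levels of 113642 to 151416 CPM (counts scaled to library size) over the libraries.

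Levels between genes are compared as FPKM, which accounts for gene length. In WT control mice *Lrg1* was the most abundant of the 9, with 4.88 ± 1.35 FPKM (SD, n = 12). *S100a9* followed at 0.309 ± 0.271 FPKM, then *Lcn2* at 0.207 ± 0.0380, *Il1r2* at 0.185 ± 0.0607, *Csf3r* at 0.110 ± 0.0568, and *S100a8* at 0.0815 ± 0.111 FPKM. *Retnlg* at 0.0406 ± 0.0841, *Ngp* at 0.0307 ± 0.0943, and *Cxcr2* at 0.0029 ± 0.0069 FPKM came last. The lowest *Lrg1* library (3.10 FPKM) lay above the highest of every other member. Among the rest, *Il1r2* lay above *Csf3r* by more than either SD, and the other neighbors in this order differed by less than the larger of their SDs. Only *Lrg1*, with 76 to 214 reads per WT control library, was counted well. The other 8 genes had between 0 and 18 reads per WT control library, so counting error was a large part of their spread. *Ngp*, *Retnlg*, and *Cxcr2* did not pass the count filter, and 6 members were tested with edgeR.

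*S100a8* and *S100a9* lie close together on chromosome 3 of mm39. *S100a8* (ENSMUSG00000056054) spans chr3:90576285-90577342 on the plus strand and *S100a9* (ENSMUSG00000056071) spans chr3:90599939-90603028 on the minus strand. *Lrg1* (ENSMUSG00000037095) lies on the minus strand at chr17:56426678-56429001. Of the other members, *Lcn2* lies at chr2:32274645-32278264 (minus strand), *Ngp* at chr9:110248815-110252080, *Retnlg* at chr16:48692984-48694859, *Il1r2* at chr1:40113239-40164391, *Cxcr2* at chr1:74193148-74200405, and *Csf3r* at chr4:125918343-125938233 (plus strand). The promoters of the first 3 are shown because edgeR called these genes in WT KPC mice, as given below. Each run ends at the base before the gene in the deposited table, is written 5′ to 3′ on the gene's strand, and comes from RefSeq (table build GRCm38.p6), placed in mm39 by its letters. Capitals mark a match to TTGCNNAA, a motif of the C/EBP factors that act in granulocyte maturation and in the acute-phase response.
*S100a8*, chr3:90576128-90576284: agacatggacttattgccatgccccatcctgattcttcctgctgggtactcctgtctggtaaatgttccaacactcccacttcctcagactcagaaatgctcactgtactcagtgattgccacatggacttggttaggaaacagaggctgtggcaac
*S100a9*, chr3:90603029-90603278: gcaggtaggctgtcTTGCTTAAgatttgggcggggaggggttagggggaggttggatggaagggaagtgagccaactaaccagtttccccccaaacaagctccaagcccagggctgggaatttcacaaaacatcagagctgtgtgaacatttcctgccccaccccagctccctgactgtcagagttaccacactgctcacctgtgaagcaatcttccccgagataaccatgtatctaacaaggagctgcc
*Lrg1*, chr17:56429002-56429196: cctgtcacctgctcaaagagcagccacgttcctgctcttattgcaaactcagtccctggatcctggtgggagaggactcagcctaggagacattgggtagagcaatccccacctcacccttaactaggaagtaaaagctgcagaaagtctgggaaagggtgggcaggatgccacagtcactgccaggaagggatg
The other members with a match to TTGCNNAA on either strand in the 250 bases before the RefSeq start were *Lcn2*, *Ngp*, and *Retnlg*, shown here as short windows. *Ngp* had a further match in the window chr9:110248855-110248875.
*Lcn2*, chr2:32277950-32277977, minus strand: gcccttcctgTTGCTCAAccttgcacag
*Ngp*, chr9:110248728-110248755, plus strand: tcctggtttaTTGCCCAAacctccttgc
*Retnlg*, chr16:48692721-48692742, plus strand: agctTTCTGCAAggcattccag
The motif was thus found in 4 of 9 members, and in 9.56% of 32851 RefSeq promoters of the same length. TTCNNNGAA, the STAT motif, was found in *Il1r2* (7.02% of all promoters), as was the E-box CACGTG bound by clock factors (6.02%). The forkhead motif TGTTTAC was found in *Retnlg* (3.17%). Motifs of NF-kB (1.41%) and of the glucocorticoid receptor (0.387%) were found in none. The windows of *S100a8*, *Lrg1*, *Cxcr2*, and *Csf3r* held none of the 6 motifs. The RefSeq start of *Il1r2* lies 12014 bases from its start in the deposited table, so its window may belong to another transcript. That of *Lcn2* lies 513 bases from its start there. The printed *Lcn2* window and the further *Ngp* window therefore lie inside the gene as the deposited table places it. A match is a string of letters, and binding was not measured here.

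In WT mice the tumor was accompanied by more transcript of the calprotectin pair and of *Lrg1*. By the permutation test the receptors *Csf3r* and *Cxcr2* and the secreted *Retnlg* were higher as well, and *Ngp* did not pass it. *Lcn2* and *Il1r2* passed neither this test nor that of edgeR. In edgeR's quasi-likelihood test, averaged over the 6 circadian times, 3 of the 9 genes were called and all 3 were higher in KPC mice, where 1.79% of the 15637 genes tested were called in either direction and 1.16% as higher. The permutation test, which permuted mice within circadian time and was not adjusted, was run on the 9 genes only, so no share over all genes stands beside it. For the genes that passed the count filter it was added after the data were seen. The plot of CPM by mouse shows the 9 genes in all 48 mice.

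**Figure D1:**
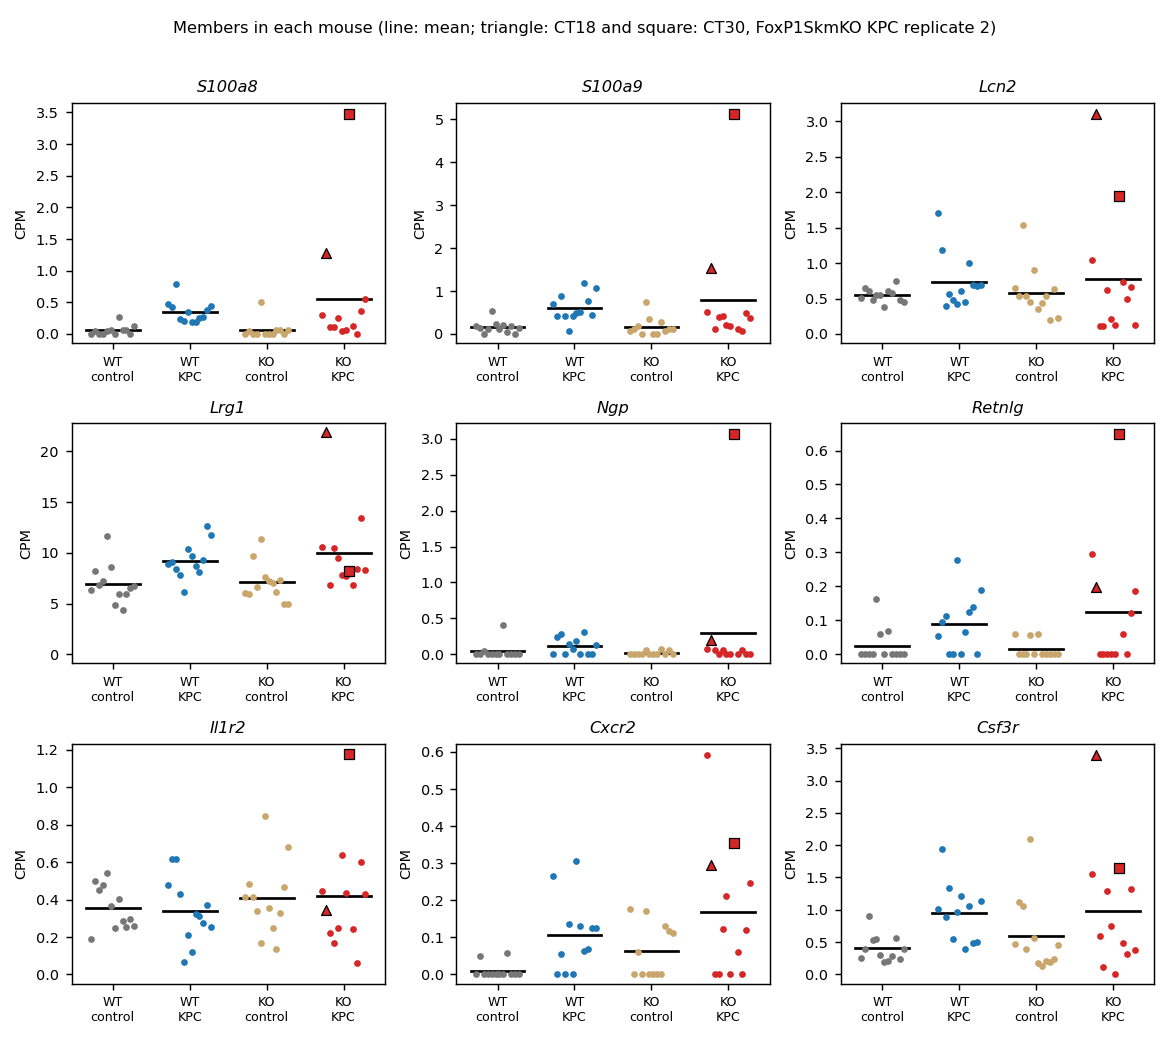
Counts scaled to library size (CPM) for each of the 9 genes (panels), with 1 point per mouse in 4 columns for WT control, WT KPC, FoxP1SkmKO control, and FoxP1SkmKO KPC mice (n = 12 each). The triangle and the square mark the second FoxP1SkmKO KPC mice of CT18 and of CT30, which hold the highest value of their group for 8 of the 9 genes, all but *Cxcr2*.

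*S100a8* had 0 to 4 reads in WT control libraries (median 1, 11 reads in all) and 3 to 14 in WT KPC libraries (median 5, 72 in all). No KPC library was at 0, whereas 5 control libraries were, and the groups overlapped through the 1 control mouse with 4 reads, from CT30. Mean CPM rose from 0.0571 ± 0.0780 to 0.349 ± 0.170 (SD, n = 12 each), a ratio of 6.11 (exact permutation p = 0.000129), and all 12 KPC mice lay above the control median. edgeR called *S100a8* (adjusted p = 0.0315). Its fitted log2 fold change of 2.83 is not a bound, since the control mice of CT22 had no read. *S100a9* had 0 to 10 reads in control libraries (median 2.5) and 1 to 19 in KPC libraries (median 9). The groups overlapped through the KPC library at 1 read, from CT26, and the control library at 10 reads, also from CT26. Its log2 fold change was 2.06 ± 0.56 (standard error, adjusted p = 0.0269) and the ratio of mean CPM was 3.78 (exact permutation p = 0.000772). The call of *S100a9* was kept in 17 of 24 fits that left out 1 WT library and that of *S100a8* in 12 of 24. Both had their highest adjusted p without the second KPC mouse of CT26 (0.278 and 0.0755). The permutation p stayed at or below 0.00141 whichever library was left out.

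*Lrg1* rose less and from a higher level. WT control mice had 3.10 to 8.22 FPKM (median 4.68) and WT KPC mice 4.32 to 8.91 FPKM (median 6.38), so the groups overlapped widely. The highest control value and the lowest KPC value both came from CT26, the only time at which the KPC mean was lower. The log2 fold change was 0.43 ± 0.11 (standard error, adjusted p = 0.0370), and the ratio of mean CPM 1.33 (exact permutation p = 0.00849). The edgeR call of *Lrg1* lay close to the threshold, and was kept in 8 of 24 fits without 1 library (adjusted p from 0.0198 to 0.117, the highest without the second KPC mouse of CT26).

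*Csf3r* had 3 to 18 reads in WT control libraries (median 5.5) and 6 to 41 in WT KPC libraries (median 16.5). The second KPC mouse of CT18 was highest, and the groups overlapped between 6 and 18 reads. Its log2 fold change of 1.30 ± 0.39 (standard error) missed the edgeR threshold (adjusted p = 0.0691) and passed that of DESeq2 (adjusted p = 0.0249), whereas mean CPM was higher in KPC mice at all 6 times, by a ratio of 2.38 (exact permutation p = 0.000343). *Cxcr2* had 2 reads in the 12 WT control libraries together and 21 in the KPC libraries, 9 of which held at least 1. The ratio of summed reads, scaled to library size, was 10.6, with a 95% exact counting interval of 2.58 to 92.9, and mean CPM was higher at all 6 times (exact permutation p = 0.00193). *Retnlg* had 5 reads in control libraries and 17 in KPC libraries (ratio of mean CPM 3.61, exact permutation p = 0.0421). That p rose to 0.0999 without the second KPC mouse of CT26. *Ngp* had 7 reads, 6 of them in 1 control mouse of CT30, against 23 (exact permutation p = 0.175).

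*Lcn2* and *Il1r2* passed neither test. *Lcn2* had 6 to 13 reads in WT control libraries (median 9) and 6 to 32 in WT KPC libraries (median 10.5). The 2 KPC mice of CT18, with 32 and 25 reads, stood above every control mouse, and the other 10 KPC mice had 6 to 16. The log2 fold change of *Lcn2* was 0.31 ± 0.31 (standard error, adjusted p = 0.690), and its ratio of mean CPM was 1.35 (exact permutation p = 0.0533). *Il1r2* had 74 reads in all WT control libraries and 72 in WT KPC libraries, with a log2 fold change of -0.20 ± 0.30 (standard error, adjusted p = 0.810). Its ratio of mean CPM was 0.95 (exact permutation p = 0.745).

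In FoxP1SkmKO mice the calprotectin pair and *Lrg1* again had higher means in KPC mice, and 2 of the 12 KPC mice held a large part of the reads of the pair. 1 of the 9 genes, *Lrg1*, was called by edgeR, where 0.428% of all genes tested were called and 0.134% as higher. *Lrg1* ranged from 3.52 to 7.97 FPKM in control mice (median 4.83) and from 4.77 to 15.5 FPKM in KPC mice (median 5.86), and the groups overlapped over most of their range. Its log2 fold change was 0.48 ± 0.11 (standard error, adjusted p = 0.0392), a call kept in 8 of 24 fits without 1 library (adjusted p from 0.0084 to 0.136, the highest without the second KPC mouse of CT22). *S100a8* had 0 to 9 reads in control libraries, with 9 of its 13 reads in the first mouse of CT26, and 0 to 59 in KPC libraries (median 3, 116 in all). *S100a9* had 0 to 13 reads in control libraries, the most again in that mouse of CT26, and 1 to 87 in KPC libraries (median 6.5). The ratios of mean CPM were 8.86 for *S100a8* (exact permutation p = 0.0220; edgeR adjusted p = 0.0848) and 4.81 for *S100a9* (exact permutation p = 0.0404; edgeR adjusted p = 0.0831).

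The second KPC mouse of CT30 held 50.9% of the *S100a8* reads of its group (59 reads), 52.7% of the *S100a9* reads (87), 86.7% of the *Ngp* reads (52), and 44.0% of the *Retnlg* reads (11). It was also the highest of the 12 for some granule proteins that neutrophils make as they mature in marrow. It had 47 reads of *Ltf* (lactoferrin) against at most 2 in any other mouse of the group, 36 of *Camp* (cathelicidin) against at most 1, and 23 of *Mpo* (myeloperoxidase) against at most 1. Other genes of the granule list were not highest in this mouse. These were *Prtn3* (13 reads against at most 20), *Elane* (1 against 2), *Mmp9* (33 against 36), *Chil3* (11 against 16), and *Pglyrp1* (8 against 11), among others. The second KPC mouse of CT18 held 38.7% of the *Lcn2* reads (63), 33.3% of the *Csf3r* reads (69), and 21.4% of the *Lrg1* reads (444). It carried transcripts of liver plasma proteins, with 4867 reads of *Alb* (albumin) against at most 35 in the other 11 mice, 598 of *Saa1* (serum amyloid A) against at most 6, and 1264 of *Hp* (haptoglobin) against at most 129. The summed level of 6 liver markers was 350 CPM in this mouse, and its range over the 12 mice was 0 to 4.38 CPM in WT control, 0 to 14.9 CPM in WT KPC, and 0.0580 to 106 CPM in FoxP1SkmKO control mice. The 106 CPM came from the first FoxP1SkmKO control mouse of CT22, which had the highest *Lcn2* count of its group (26 reads). The part of these transcripts in the result was not tested.

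Because of these values the comparison was repeated without both mice, a choice made after the data were seen. For *Lrg1*, the mouse of CT30 had 140 reads against a median of 142 in the other 11. The 2 mice hold between them the highest KPC value of 8 of the 9 genes, so ratios of these genes had to fall. The ratio of mean CPM in the remaining 10 KPC mice to 12 control mice was 3.05 for *S100a8* (exact permutation p = 0.0657), 1.75 for *S100a9* (exact permutation p = 0.112), and 1.27 for *Lrg1* (exact permutation p = 0.0439). edgeR then called none of the 6 tested members, with an adjusted p of 0.123 for *Lrg1* (log2 fold change 0.36), although 4 had an unadjusted p under 0.05 (*Lrg1*, *S100a9*, *S100a8*, and *Lcn2*). The control group also held mice that stood apart, the first of CT26 with 9 of 13 *S100a8* reads and 37 *Csf3r* reads and the first of CT22 with the liver transcripts. These control mice also had the highest *Lrg1* values of their group (7.97 and 6.78 FPKM), and the first of CT26 had the most *S100a9* reads. Leaving them out therefore had to raise the ratios of *S100a8*, *S100a9*, and *Lrg1* again. Without these 2 control mice and the 2 KPC mice, another choice made after the data were seen, the ratio was 7.89 for *S100a8* (31 reads in 10 KPC mice against 4 in 10 control mice; exact permutation p = 0.00343), 2.70 for *S100a9* (exact permutation p = 0.0134), and 1.41 for *Lrg1* (exact permutation p = 0.00206). edgeR then called *Lrg1* (log2 fold change 0.47, adjusted p = 0.0278) and neither *S100a8* (adjusted p = 0.0805) nor *S100a9* (adjusted p = 0.0742). All 3 ratios were above 1 in both repeats, while the tests depended on which mice were left out. *Lcn2* had a log2 fold change of -0.68 without the 2 KPC mice (unadjusted p = 0.0335, adjusted p = 0.354, edgeR) and -0.59 without 2 mice of each group (adjusted p = 0.395). *Csf3r* was at -0.43 and -0.08 on the log2 scale (edgeR), although its ratio of mean CPM was 1.15 and 1.73. The KPC mouse left at CT30 had 0 *Csf3r* reads in both repeats. These 2 log2 fold changes therefore rest on a group without a read and are not bounds. The plot of KPC to control ratios sets these values beside those of WT mice.

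**Figure D2:**
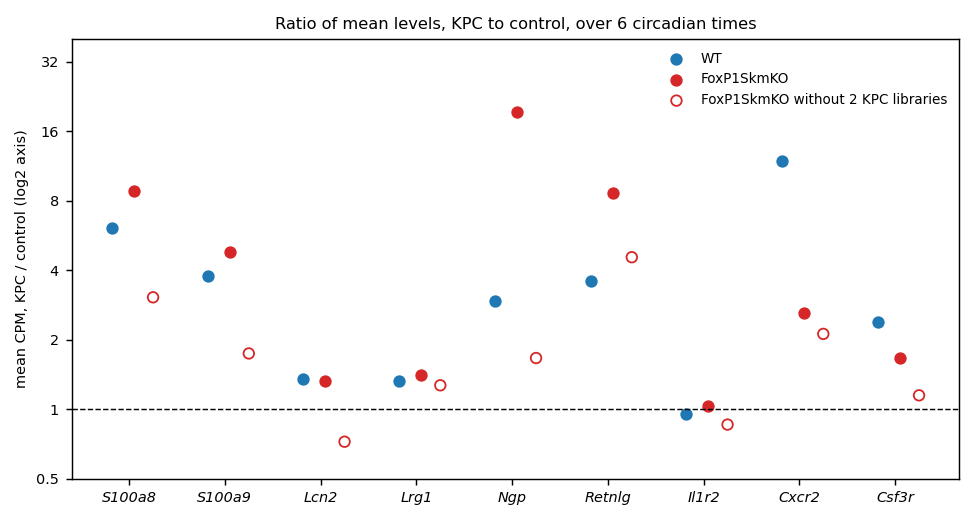
Ratio of mean CPM in KPC mice to mean CPM in control mice for the 9 genes (log2 axis), in WT mice, in FoxP1SkmKO mice, and in FoxP1SkmKO mice without the second KPC mice of CT18 and CT30. Without the 2 mice the ratio of *Ngp* falls from 19.3 to 1.67 and that of *S100a8* from 8.86 to 3.05, while that of *Lrg1* moves from 1.41 to 1.27.

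For the rarest members in FoxP1SkmKO mice, *Ngp* had 3 reads in control libraries and 60 in KPC libraries, a ratio of 19.9 with a 95% exact counting interval of 6.50 to 99.3, with 52 of the 60 in 1 mouse (exact permutation p = 0.116). *Retnlg* had 3 and 25 reads, a ratio of 8.30 with a counting interval of 2.53 to 42.9 (exact permutation p = 0.0162, and 0.0741 without the 2 mice). *Cxcr2* had 13 and 33 reads (ratio of mean CPM 2.61, exact permutation p = 0.0548). *Csf3r* had 0 to 69 reads in KPC libraries against 2 to 37 in control libraries, and its log2 fold change was 0.82 ± 0.40 (standard error, adjusted p = 0.379). With all mice, *Lcn2* and *Il1r2* had a log2 fold change of -0.0037 ± 0.34 and -0.10 ± 0.29 (standard errors; adjusted p = 0.998 and 0.924).

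The tumor effect was not shown to differ between the genotypes, and the genotypes were not shown to differ in either condition. By edgeR, 0 of the 6 tested members had a called difference of KPC effect, as had 0.0% of all genes, and 0 had an unadjusted p under 0.05. DESeq2 and limma called 0 as well. The differences (FoxP1SkmKO minus WT) ranged from -0.48 ± 0.56 for *Csf3r* to 0.38 for *S100a8* on the log2 scale, and that of *Lrg1* was 0.05 ± 0.16 (standard errors; adjusted p = 0.980 for *Lrg1*). These values do not show that the effects were equal, and they rested in part on the 2 FoxP1SkmKO KPC mice named above. Without them the difference was -1.73 for *Csf3r* and -0.99 for *Lcn2* (edgeR). It turned negative for *S100a8* (-0.65) and *S100a9* (-0.55), and without 2 mice of each FoxP1SkmKO group it was 0.21 and 0.16. *Csf3r* and *Lcn2* were then at -1.38 and -0.90. The FoxP1SkmKO control mice of CT30 had 0 reads of *S100a8* and *S100a9*, so the values of these genes are not bounds. Nor are those of *Csf3r*, since the FoxP1SkmKO KPC mouse left at CT30 had 0 reads of it. With all mice, 3 of the groups of *S100a8* in this contrast had no read and its test could not be used. The difference was therefore refitted in a model with 4 groups plus circadian time, an alternative added after the data were seen. This refit gave 0.09 ± 1.14 (standard error, adjusted p = 0.997). Between FoxP1SkmKO and WT mice, 0 of 6 members were called in control mice, where 3.44% of all genes were, and 0 of 6 in KPC mice, where 0.320% were. With all mice, no member had an unadjusted p under 0.05 in either, and DESeq2 and limma called 0. The test of *S100a8* in control mice could not be used either, and the model with 4 groups plus circadian time gave 0.22 ± 1.02 (standard error, adjusted p = 0.940). The log2 fold changes of genotype lay between -0.55 and 0.26 in control mice and between -0.32 and 0.24 in KPC mice. Without the 2 FoxP1SkmKO KPC mice, 4 of the 6 had lower values in FoxP1SkmKO KPC mice with an unadjusted p under 0.05 and none was called by edgeR. These were *Csf3r* (log2 fold change -1.47, adjusted p = 0.300), *S100a8* (-1.15, adjusted p = 0.509), *S100a9* (-1.10, adjusted p = 0.327), and *Lcn2* (-0.99, adjusted p = 0.241), with edgeR values. These 2 mice were the highest of their group, so leaving them out lowers its values. The value of *Csf3r* is again not a bound, as the FoxP1SkmKO KPC mouse left at CT30 had 0 reads.

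The calprotectin subunits are translated from separate genes and work as a pair, and their reads moved together from mouse to mouse. Across the 48 libraries the Pearson correlation of log2 CPM of *S100a8* and *S100a9* was 0.85, and 0.78 after the mean of each of the 24 groups was taken out. These values and those that follow describe libraries that share depth and, for some, a group. They include the second FoxP1SkmKO KPC mice of CT18 and CT30. The 2 mice of CT30 had 1 and 59 reads of *S100a8* and 3 and 87 of *S100a9*. Those of CT18 had 4 and 26 reads of *S100a8* and 7 and 31 of *S100a9*. The part of these mice in the correlations was not tested. Within groups *S100a9* also correlated with *Lcn2* (0.67) and both subunits with *Csf3r* (0.68 for *S100a8* and 0.67 for *S100a9*), whereas *Il1r2* did not follow any other member by more than 0.21. *S100a9* had more reads than *S100a8* in each group in total, with 124 against 72 in WT KPC mice and 165 against 116 in FoxP1SkmKO KPC mice.

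**Figure D3:**
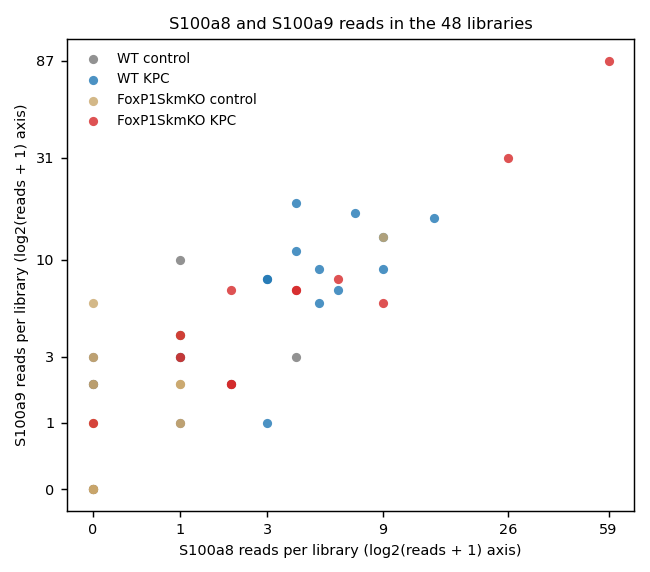
Reads of *S100a8* (horizontal axis) and *S100a9* (vertical axis) in each of the 48 mice, both as log2(reads + 1), with a color for each of the 4 genotype and condition groups. Some points with few reads overlap. The FoxP1SkmKO KPC mouse with 59 and 87 reads lies far above the rest, followed by that with 26 and 31.

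By time of day, the *Lrg1* response was the best measured. At single circadian times, with 2 mice against 2, edgeR called 0 of 36 member tests in WT mice, where 1.2% of all tests of single times were called. In WT mice 10 of the 36 had an unadjusted p under 0.05, and DESeq2 and limma called 0. WT KPC mice at CT38 had 8.28 and 8.91 FPKM of *Lrg1* against 4.61 and 4.75 in control mice (log2 fold change 0.88 ± 0.27, standard error; adjusted p = 0.276). At CT26 the KPC mice had 4.32 and 7.26 FPKM against 6.03 and 8.22 (-0.31 ± 0.27). In FoxP1SkmKO mice 1 of 36 member tests was called, *Lrg1* at CT18, where 0.0107% of all tests of single times were called. The KPC mice had 7.46 and 15.5 FPKM there and the control mice 4.22 and 4.27 (log2 fold change 1.46 ± 0.27, standard error; adjusted p = 0.0359). Of the 15637 genes tested at CT18 in FoxP1SkmKO mice it was the 1 gene called higher (0.0064%). The mouse with 15.5 FPKM is the one with liver transcripts, and without it the log2 fold change was 0.82 and the adjusted p 0.491. At CT38 FoxP1SkmKO KPC mice had 5.82 and 9.59 FPKM against 3.52 and 3.53 (1.13 ± 0.28, adjusted p = 0.168). Whether the KPC effect varied over the 6 times was also tested. By edgeR 0 of 6 members were called in WT mice, where 0.883% of all genes were, and 0 of 6 in FoxP1SkmKO mice, where 0.0% were. Unadjusted p under 0.05 was reached by 1 member in WT (*Lrg1*) and by 4 in FoxP1SkmKO mice (*Lrg1*, *Lcn2*, *S100a9*, and *S100a8*). DESeq2 called 0 in WT and 1 in FoxP1SkmKO mice, *Lrg1*, and limma called 0 in each.

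**Figure D4:**
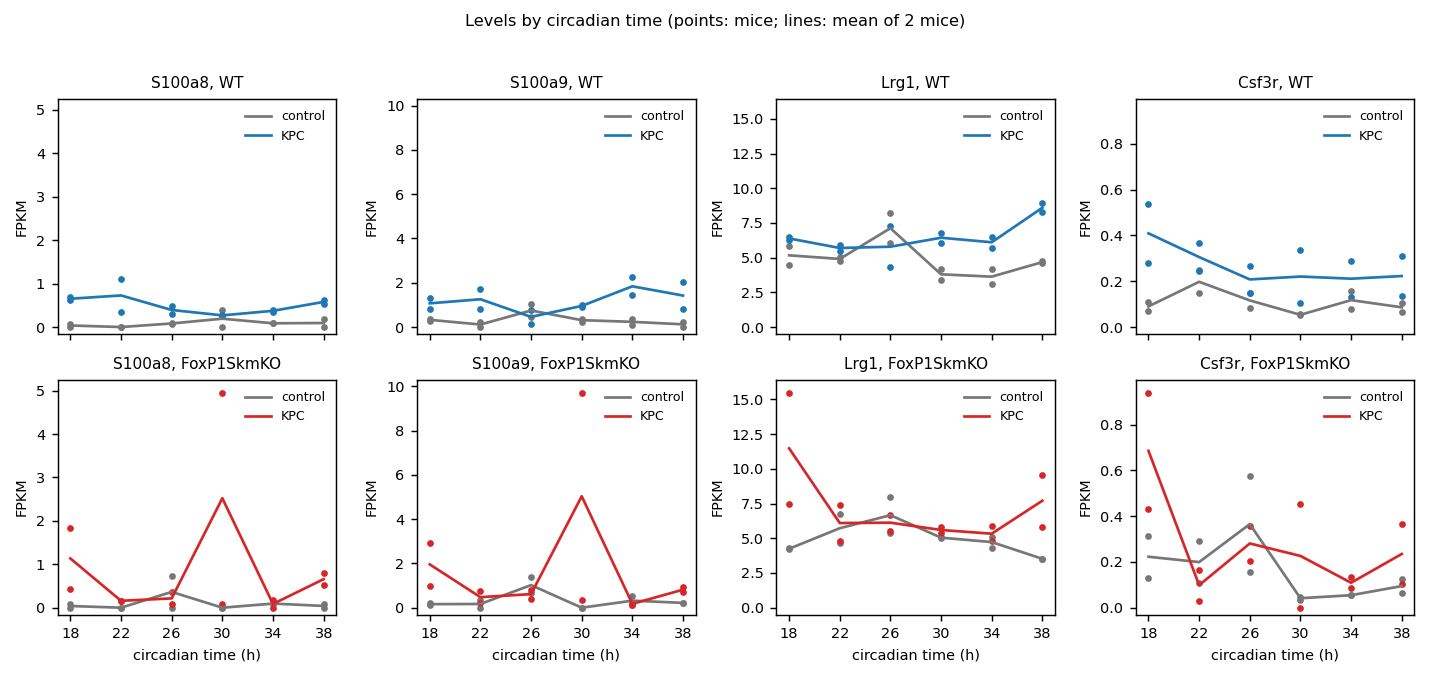
FPKM of *S100a8*, *S100a9*, *Lrg1*, and *Csf3r* (panels) against circadian time in h, with 1 point per mouse and a line through the mean of the 2 mice of each time, for WT and FoxP1SkmKO mice with and without KPC tumors. For *Lrg1* the FoxP1SkmKO KPC mean is 11.5 FPKM at CT18 and 5.33 to 7.71 FPKM at the other times.

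None of the 9 genes was called rhythmic in any of the 4 groups by a sinusoid of 24 h at an unadjusted p under 0.01. Among all genes with varying FPKM, 4.92% were called in WT control, 4.22% in WT KPC, 4.07% in FoxP1SkmKO control, and 2.63% in FoxP1SkmKO KPC mice. The lowest p was that of *Lrg1* in FoxP1SkmKO control mice (0.0161, sinusoid fit over 12 mice), with a fitted mean of 4.99 FPKM, an amplitude of 1.35 FPKM, and a peak at 1.84 h of the 24-h cycle, near CT26. Its mean at that time was 6.67 FPKM and its lowest, 3.52 FPKM, was at CT38. In WT control mice *Lrg1* also had its highest mean at CT26 (7.12 FPKM), with an amplitude of 1.10 FPKM (0.128 by the same fit). *Il1r2* in WT KPC mice came next (0.0241 by the same fit).

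Other genes of the same pathways were read from lists that hold granulocyte, acute-phase, and signaling genes. The first list holds 16 factors and cytokine signals that drive granulocyte and acute-phase genes. Of these 12 were tested, and 5 rose in WT KPC mice. These were *Bcl3*, an NF-kB cofactor (log2 fold change 1.04 ± 0.16, standard error; adjusted p = 0.000367), *Socs3*, a feedback inhibitor of STAT3 signals (0.81 ± 0.19, adjusted p = 0.0227), *Osmr*, the oncostatin M receptor (0.79 ± 0.12, adjusted p = 0.000387), *Cebpd*, a C/EBP factor (0.70 ± 0.11, adjusted p = 0.000387), and *Stat3* (0.30 ± 0.05, adjusted p = 0.00169), which was named after its values were seen. In FoxP1SkmKO mice 3 of the 12 rose, *Bcl3* (0.70 ± 0.15, adjusted p = 0.0239), *Cebpd* (0.51 ± 0.10, adjusted p = 0.0177), and *Stat3* (0.22 ± 0.05, adjusted p = 0.0435). Over all genes tested 1.16% were called higher in WT KPC mice and 0.134% in FoxP1SkmKO KPC mice. The median log2 fold change of the 12 was 0.35 in WT and 0.29 in FoxP1SkmKO mice, against 0.0016 and 0.0048 over all genes tested. The list was chosen with earlier results of these data known, so its calls and medians are a description and no test of the list.

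Ligands and partners of the 9 genes had 8 of 17 members tested. *Il1r1*, the signaling receptor of interleukin-1, rose in WT KPC mice (0.51 ± 0.10, adjusted p = 0.00522), and was at 0.12 ± 0.10 in FoxP1SkmKO mice (adjusted p = 0.684). Of 5 endothelial adhesion molecules 1 rose in WT KPC mice, *Selp*, the P-selectin that slows neutrophils on the vessel wall (0.98 ± 0.19, adjusted p = 0.00563). It was at 0.61 ± 0.20 in FoxP1SkmKO mice (adjusted p = 0.155). Among 6 endothelial markers *Vwf* rose (0.36 ± 0.07, adjusted p = 0.00242) and *Kdr* fell (-0.27 ± 0.07, adjusted p = 0.0412) in WT KPC mice, and none was called in FoxP1SkmKO mice. None of the 17 tested acute-phase proteins was called in either genotype by edgeR, although 16 of 17 had a positive log2 fold change in WT mice (median 0.88) and 9 of 17 in FoxP1SkmKO mice (median 0.02). The summed level of the list had a median of 77.5 CPM in WT control and 77.2 CPM in WT KPC mice. In FoxP1SkmKO mice it was 82.2 and 70.7 CPM. Fold changes of single genes of this list can rest on few reads. *Fga* had 1110 reads in the second FoxP1SkmKO KPC mouse of CT18 and at most 7 in the other 11.

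Markers of the neutrophil itself were close to 0. *Ly6g*, the surface protein that defines mouse neutrophils, had 0 reads in the 24 control libraries, 2 in WT KPC, and 1 in FoxP1SkmKO KPC libraries. *Mpo* had 3, 0, 0, and 24 reads in WT control, WT KPC, FoxP1SkmKO control, and FoxP1SkmKO KPC mice, *Camp* had 6, 12, 4, and 39, and *Ltf* had 10, 31, 11, and 49, in the same order. Of the 20 neutrophil granule genes measured, 4 passed the count filter, and none was called in either genotype, with 3 of 4 positive in each. Of 20 neutrophil surface receptors 9 passed and none was called, with 9 of 9 positive in WT mice (median 0.57) and 7 of 9 in FoxP1SkmKO mice (median 0.12). Of 6 phagocyte oxidase genes none was called (median 0.50 and 0.11). Macrophage and monocyte markers, which include cells that also carry *S100a8*, *S100a9*, and *Csf3r* transcripts, had 12 of 12 positive values in WT mice (median 0.28) and 8 of 12 in FoxP1SkmKO mice (0.13), with none called. Their summed level ranged from 16.9 to 63.5 CPM in WT control mice and from 21.1 to 101 CPM in WT KPC mice, and both highest KPC values were from CT18. Liver markers had a median log2 fold change of 2.14 in WT and -0.89 in FoxP1SkmKO mice, with 0 of 6 called. Their summed level had a median of 0.149 CPM in WT control and 0.330 CPM in WT KPC mice. In FoxP1SkmKO mice it was 1.23 and 0.545 CPM, so these fold changes rest on few reads in most mice. No erythroid, platelet, lymphocyte, adipocyte, epithelial, or muscle fiber marker was called for the KPC effect in either genotype. The part of these cell types in the rise of the members was not tested, and in whole muscle more cells of a type and more RNA per cell cannot be told apart.

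Genes with the most similar log2 CPM over the 48 libraries were found for each tested member among all tested genes. For *S100a8* these were *Csf2rb* (Pearson correlation 0.71), *Selp* (0.67), and *Csf2rb2* (0.66), and the same 3 came first for *S100a9* (0.72, 0.71, and 0.70). *Csf2rb* and *Csf2rb2* encode subunits of cytokine receptors of myeloid cells. *Csf3r* was closest to *Fcgr3*, an Fc receptor (0.74), *Vav1* (0.73), and *C4b* (0.72). *Lrg1* was closest to *Plvap*, a protein of endothelial fenestrae (0.81), *Slc3a2* (0.79), and *Fam110d* (0.79). *Lcn2* was closest to *Ccdc136* (0.60), *Serpina3n* (0.58), and *Cyp2d26* (0.57), and *Il1r2* to *Serpinb1a* (0.61), *Kcnk5* (0.60), and *Mxra8* (0.59). The points share groups and library depth and include the second FoxP1SkmKO KPC mice of CT18 and CT30, and the values are a description.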

How the data were processed

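Tibialis anterior muscle from 48 mice was profiled by poly-A RNA-seq, and libraries were grouped by the genotype, condition, and circadian time in the sample labels. The authors deposited raw read counts per gene in tables of 4 libraries each and FPKM (counts scaled by gene length and library size) for 56748 genes. Their methods name STAR and HTSeq on mm39, whereas the submitters' processing notes name HISAT2 2.0.5, DESeq2 1.20.0, and mm39. Which aligner made the counts was not settled. Columns of the authors' own comparisons, which hold fold changes and p-values, and their counts divided by size factors were not used. The comparison tables leave out genes with almost no reads, and 367 to 1064 reads per library were recovered from the deposited FPKM for those genes.

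Total counts per library ranged from 14480867 to 20787784. The mice were labelled as separate samples, and the chi-square per degree of freedom between counts of the 2 mice of a group was 4.79 to 15.8, where sampling alone gives about 1. Counting intervals cover counting error only.

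Counts were tested with edgeR 4.0.16 in R 4.3.3: filterByExpr over the 24 groups, TMM scaling, a quasi-likelihood fit with 1 coefficient per group over all 48 libraries, and Benjamini-Hochberg adjustment over the 15637 genes kept, with calls at an adjusted p under 0.05. KPC and genotype effects are means over the 6 circadian times. Standard errors are Wald errors of the fitted coefficients and are not given where a group had no read. CPM are counts divided by the TMM-scaled library total, as edgeR gives them. In addition, each member's mean CPM in KPC and control mice was compared by an exact permutation test, two-sided, that permuted mice within circadian time (46656 arrangements) and was not adjusted over the 18 tests of 9 genes in 2 genotypes. This was the main test for the 3 genes under the count filter and was added for the others after the data were seen. Rhythm was tested on the deposited FPKM with a least-squares sinusoid (period 24 h, unadjusted p under 0.01), in Python 3.11.15 with numpy 2.4.6, scipy 1.17.1, and pandas 2.3.3. The tests were tried on simulated data first.

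The members, the other gene lists, and the tests were chosen with earlier results of these data known. Named genes were the members, at most 4 called genes per list with the largest log2 fold change, and, for each member that passed the filter, the 3 genes with the most similar log2 CPM. Alternatives were other scalings and filters, limma 3.58.1 on log2(FPKM + 1) and log2(FPKM + 0.1), DESeq2 1.42.0, the replicate number as a block, circadian times left out, and libraries left out, 1 at a time or as sets of 2 and 4 chosen after their values were seen. Promoter windows came from RefSeq, whose table is built on GRCm38.p6. They were placed in GRCm39 (mm39) by exact match of their letters.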

Additional observations from a re-analysis of the deposited data

How the results depend on the processing

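Counts of called members depended on the processing. In WT mice the 3 calls became 1 without CT22 or without CT30, 0 without CT34 or CT38, 5 with no filter on low counts, 0 in limma on log2(FPKM + 1), 2 on log2(FPKM + 0.1), and, in alternatives added after seeing the data, 0 in a model with 4 groups plus circadian time, 6 by the exact permutation test, and 4 (*Csf3r* included, adjusted p = 0.0254, edgeR) without the second FoxP1SkmKO KPC mice of CT18 and CT30, also when the first FoxP1SkmKO control mice of CT22 and CT26 were left out too. In FoxP1SkmKO mice the 1 call became 0 without CT18, CT30, or CT38, 3 without CT34, 3 with no filter, 0 with only the 24 libraries compared, 0 in both limma fits, and, in added alternatives, 0 without the second KPC mice of CT18 and CT30, 0 in the additive model, 4 by the permutation test, and by that test 1 without those 2 mice and 3 without these 2 and 2 control mice (2 mice of each group below). With 1 library left out the counts ranged from 0 to 4 in WT mice and from 0 to 3 in FoxP1SkmKO mice. DESeq2 gave *S100a8* no adjusted p in WT mice. Calls at single times became 7 with no filter and 1 in edgeR on the 4 libraries of each comparison in WT mice, and in FoxP1SkmKO mice 10 with no filter, 2 with a robust prior, 0 on 4 libraries, 0 in both limma fits, and 0 to 3 with 1 library left out. Calls of a KPC effect that varied with time became 1 in WT mice with no filter, and in FoxP1SkmKO mice 5 with no filter, 1 in DESeq2, and 0 to 2 with 1 library left out. Rhythm calls rose from 0 to 1, *Lrg1*, in FoxP1SkmKO control mice on log2(FPKM + 1), on log2(FPKM + 0.1), and in edgeR on counts, and to 1, *Lrg1*, in FoxP1SkmKO KPC mice in edgeR on counts. With 1 library left out they ranged from 0 to 1 in WT KPC mice. Among the 3 genes under the count filter, the 3 permutation results under 0.05 (*Retnlg* and *Cxcr2* in WT, *Retnlg* in FoxP1SkmKO mice) became 1 (*Ngp* in WT mice) in edgeR with no filter, and ranged from 2 to 5 with 1 library left out. The difference between genotypes and both genotype effects gave 0 member calls under each alternative run.

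Directions reversed for several values that were not called. The log2 fold change of *Il1r2* in WT mice became 0.10 without CT26. In FoxP1SkmKO mice that of *Lcn2* became 0.62 without CT22, 0.14 without CT26, 0.0204 without CT38, 0.0001 with the replicate block, 0.23 in the additive model, and 0.0516 in limma on log2(FPKM + 1), and ranged from -0.50 to 0.15 with 1 library left out. That of *Il1r2* became 0.0616 without CT22, 0.0218 in the additive model, and 0.002 in limma on log2(FPKM + 1), and ranged from -0.30 to 0.15. That of *Csf3r*, 0.82 with all mice, became -0.43 without the second KPC mice of CT18 and CT30 and -0.0823 without 2 mice of each group. The KPC mouse left at CT30 had 0 *Csf3r* reads in both of these sets, so the 2 values are not bounds. With 1 library left out that of *Csf3r* ranged from -0.32 to 1.03. The genotype difference of KPC effect turned from 0.38 to -0.65 for *S100a8* and from 0.25 to -0.55 for *S100a9* without those 2 KPC mice. The FoxP1SkmKO control mice of CT30 had 0 reads of both genes, so these differences are not bounds either. The genotype effect of *S100a8* in control mice turned from -0.51 to 0.22 in the additive model. The cause of the reversals was not tested.

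Replicate numbers did not pair the mice: deviations from group means of same-numbered mice correlated between -0.324 and 0.234 (median -0.004), over 0.1 in 12 of 276 pairs of groups. With the replicate number as a block 3 members were called in WT and 1 in FoxP1SkmKO mice, as without it. Over all genes, the 280 calls in WT mice became 794 with no filter, 106 in the additive model, 166 and 173 in limma, and 118 to 232 with 1 time left out. The 67 calls in FoxP1SkmKO mice became 527 with no filter, 170 in DESeq2, 14 with only 24 libraries, 34 without the 2 mice, 177 without 2 mice of each group, 31 in the additive model, 22 and 20 in limma, and 3 to 130 with 1 time left out. Calls of genotype in control mice (538) became 933 with no filter and 268 to 604 with 1 time left out. Those in KPC mice (50) became 470 with no filter, 117 in DESeq2, 13 with only 24 libraries, 15 without the 2 mice, 16 without 2 mice of each group, 28 in both limma fits, and 0 to 138 with 1 time left out. The difference of effects (0) became 104 with no filter. A KPC effect that varied with time was called for 138 genes in WT mice, 806 with no filter, 361 in DESeq2, 78 with only 24 libraries, and 87 in limma on log2(FPKM + 1) and for 0 in FoxP1SkmKO mice, 905 with no filter, 63 in DESeq2, and 1 with only 24 libraries. Apart from *Lrg1*, the members had at most 87 reads in any library, which limits their precision.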
